A study of Mus musculus with 66 samples.

Results

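The 8 genes described here encode the carbonic anhydrases Car1, Car2, Car3, Car4, Car8, Car9, Car12 and Car13. They were taken by gene symbol from the deposited abundance table, in which they held 29 of 88198 transcripts and 8 of 30452 genes. The table covered 66 samples of 19 mice of the strain C57Bl/6, which were 6 weeks old when bought. Mice were given 3% dextran sulfate sodium (DSS), a polymer that damages the colonic epithelium when drunk, in a protocol of 6 days from day 0. Mid-colon, rectum and anus were taken from 4 uninjured mice at day 0 and from 3 mice at each of days 3, 6, 9, 14 and 20. At days 9, 14 and 20 the 9 mice each gave a further section, labelled squamous neo-epithelium, kept apart from rectum and anus. Every section was mucosal tissue from which the muscle layer was dissected away, per the labels. No genotype is labelled, groups differ by section and day, and each day has its own mice. Levels are given as TPM, an abundance adjusted for transcript length and scaled to 1000000 per sample. The values came without counts of reads, which leaves the depth of each library unknown, and no detection limit is given.

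Carbonic anhydrases are zinc enzymes that interconvert carbon dioxide and bicarbonate with the release or uptake of a proton. In the surface cells of the colon they feed the sodium-proton and chloride-bicarbonate exchangers that absorb salt and water. Car1, Car2, Car3 and Car13 are cytosolic enzymes. Car4 is anchored to the outer face of the apical membrane by a lipid. Car9 and Car12 are transmembrane enzymes with an extracellular active site, and Car9 is a textbook target of hypoxia-inducible factor. Car8 is a related cytosolic protein without catalytic activity.

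By the GENCODE M21 annotation of mm10 (GRCm38), Car13 (ENSMUSG00000027555), Car1 (ENSMUSG00000027556), Car3 (ENSMUSG00000027559) and Car2 (ENSMUSG00000027562) lie in that order on chromosome 3. Car13 spans chr3:14641727-14663002 and Car1, the single one on the minus strand among these genes, spans chr3:14766216-14808368. Car3 spans chr3:14863512-14872523 and Car2 spans chr3:14886273-14900770, both on the plus strand. Car8 (ENSMUSG00000041261) spans chr4:8143362-8239041 on the minus strand. Car9 (ENSMUSG00000028463) spans chr4:43506966-43513729, Car12 (ENSMUSG00000032373) spans chr9:66713686-66766845 and Car4 (ENSMUSG00000000805) spans chr11:84957786-84966044, all 3 on the plus strand.

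Sequence before the start site is printed for the 3 membrane-bound genes, the members matched in the table of RefSeq windows. Their levels took 3 different courses in the rectum after injury: Car4 fell, rose and fell again, Car12 rose, and no change was called for Car9. The windows of 250 bases before the start site (GRCm38.p6, plus strand, 5′ to 3′) were matched by symbol. ACGTG, the core of the hypoxia response element (searched on both strands, so also as CACGT), and TGANTCA, the AP-1 motif, are in capitals where present. They do not overlap each other as found here. The window of Car9 reached into the annotated gene, so its part before the gene is shown, together with the 30 bases before the RefSeq start site.
Car9, chr4:43506776-43506965: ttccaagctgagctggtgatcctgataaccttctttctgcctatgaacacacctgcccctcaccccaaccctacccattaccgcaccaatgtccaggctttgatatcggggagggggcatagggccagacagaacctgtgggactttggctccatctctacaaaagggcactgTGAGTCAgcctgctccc
Car9, chr4:43506996-43507025: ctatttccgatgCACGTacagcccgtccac
Car12, chr9:66713436-66713685: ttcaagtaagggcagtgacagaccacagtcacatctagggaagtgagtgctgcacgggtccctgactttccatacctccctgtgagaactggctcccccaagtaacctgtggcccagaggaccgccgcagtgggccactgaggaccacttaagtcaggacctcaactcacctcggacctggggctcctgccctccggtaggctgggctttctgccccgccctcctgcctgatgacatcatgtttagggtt
Car4, chr11:84957504-84957753: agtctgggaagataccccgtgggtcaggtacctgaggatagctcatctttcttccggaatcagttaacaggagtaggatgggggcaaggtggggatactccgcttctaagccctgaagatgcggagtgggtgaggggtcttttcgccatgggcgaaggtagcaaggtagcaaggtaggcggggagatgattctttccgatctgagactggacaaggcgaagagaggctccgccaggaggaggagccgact
ACGTG was found once in the window of Car9, on the minus strand at positions -18 to -14 from the RefSeq start site, and TGANTCA once, at -77 to -71. Neither was found in the windows of Car12 and Car4. Of 32851 promoter windows of the same length, 16.6% held ACGTG and 6.75% held TGANTCA.

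In the uninjured colon the 8 genes together made up about 1% of all transcripts, and 3 of them made up nearly all of that. Their summed level was 10268 ± 1443 TPM in mid-colon, 8438 ± 1078 TPM in rectum and 2009 ± 1221 TPM in anus (SD, n = 4 each), which is 1.03%, 0.844% and 0.201% of the total. Car4 took 45.0% ± 3.02 of the sum in mid-colon, Car1 39.7% ± 2.10 and Car2 14.5% ± 2.79 (SD, n = 4). In the rectum the order of the first 2 changed places, with Car1 at 46.5% ± 2.50 and Car4 at 36.7% ± 2.13 (SD, n = 4). Below these came Car9 at 64.8 ± 6.05 TPM, Car13 at 17.1 ± 1.08 TPM, Car3 at 1.36 ± 0.673 TPM, Car8 at 0.65 ± 0.161 TPM and Car12 at 0.426 ± 0.0544 TPM in rectum (SD, n = 4 each). Car8 and Car12 lay under 1 TPM in the 4 uninjured rectal samples, and their ranges touched neither Car13 nor Car9.

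**Figure D1:**
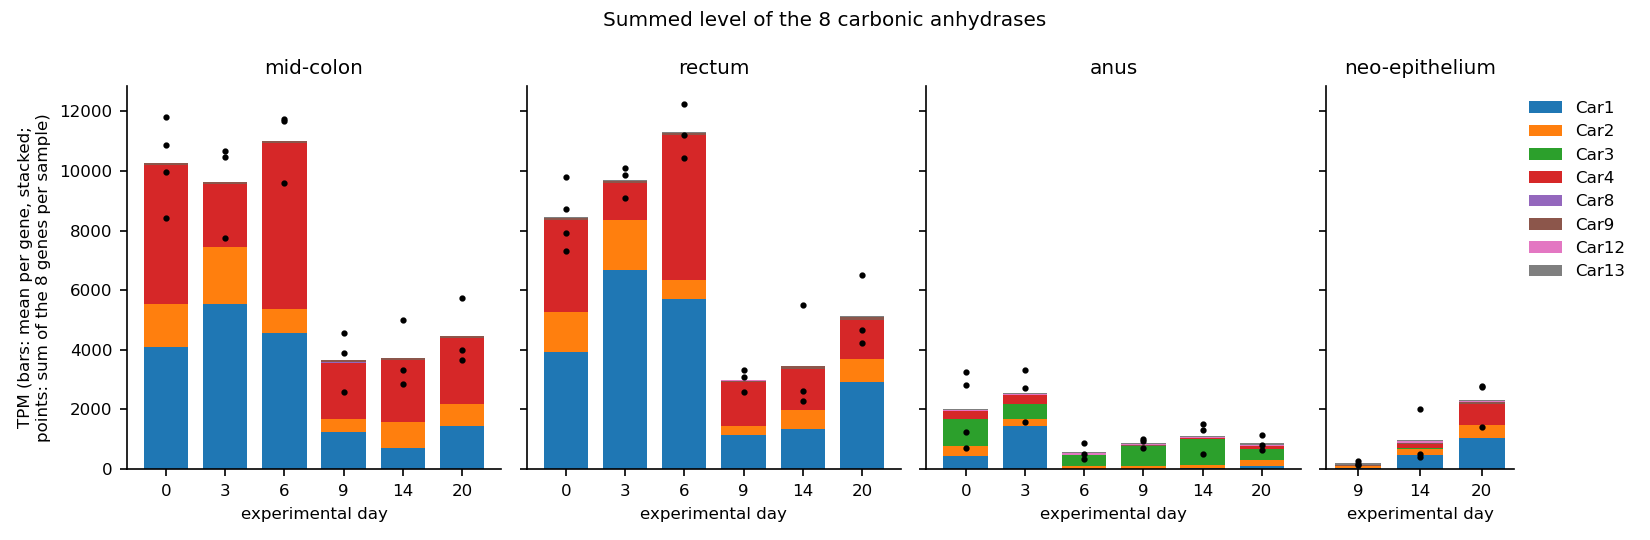
Summed TPM of the 8 carbonic anhydrases (y axis) by experimental day (x axis) in 4 sections, with bars stacked from the mean of each gene and points for the sum in each sample. The sum in rectum went from 8438 ± 1078 TPM at day 0 to 11293 ± 900.4 TPM at day 6 and 3002 ± 378 TPM at day 9 (mean ± SD).

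At day 0 each of the 8 genes differed between anus and rectum: Car1, Car2, Car4 and Car9 were lower in anus, and Car3, Car8, Car12 and Car13 were higher. In this comparison 60.3% of the 13158 genes tested were called in limma with Benjamini-Hochberg adjustment (adjusted p under 0.05), 25.9% higher and 34.4% lower, so a call was the common outcome. Car4 was lowest in anus relative to rectum, at 189, 206, 175 and 495 TPM in anus and 2731, 3056, 3297 and 3230.4 TPM in rectum (the 4 mice in the same order). The highest anal value of Car4 lay far below the lowest rectal one, a log2 difference of -3.67 ± 0.29 (SE; limma adjusted p 4.77e-06). For Car1 the difference was -3.34 ± 0.37 (limma adjusted p 5.02e-05), for Car2 -2.24 ± 0.33 (0.000264) and for Car9 -1.77 ± 0.45 (0.00723). Car12 was the reverse, at 8.82, 14.7, 16.1 and 12.5 TPM in anus and 0.493, 0.375, 0.39 and 0.447 TPM in rectum, a log2 difference of 3.27 ± 0.19 (SE; limma adjusted p 5.6e-07). Anal Car13 averaged 34.5 ± 7.91 TPM and rectal Car13 17.1 ± 1.08 TPM (SD, n = 4), with no overlap and a log2 difference of 0.95 ± 0.16 (SE; limma adjusted p 0.000687). Car12 passed the filter on low values through the anal samples, where it is high, as did Car3 and Car8. The sections matched their labels by markers: the summed TPM of 8 squamous markers ran from 12509 to 21720.5 in anus and 17.3 to 155 in rectum, and that of 8 absorptive colonocyte markers from 405 to 1184 and 4733 to 5183. In bulk tissue, fewer cells of a type and less RNA per cell cannot be told apart.

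Rectum and mid-colon were close at day 0: of the 5 carbonic anhydrases tested, 0 were called (1.79% of 12037 genes were), with 1 of the 5 (Car4) at an unadjusted p under 0.05. Car4 was 3802, 4074, 4982 and 5674 TPM in mid-colon and 2731, 3056, 3297 and 3230.4 TPM in rectum, with no overlap. Its log2 difference was -0.57 ± 0.13 (SE), which missed the threshold (limma adjusted p 0.0542) and passed it with the mouse as a replicate block (0.016). All genes together also shifted between these sections, by a median of 0.21 (log2), and with TMM factors the difference of Car4 was -0.84.

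**Figure D2:**
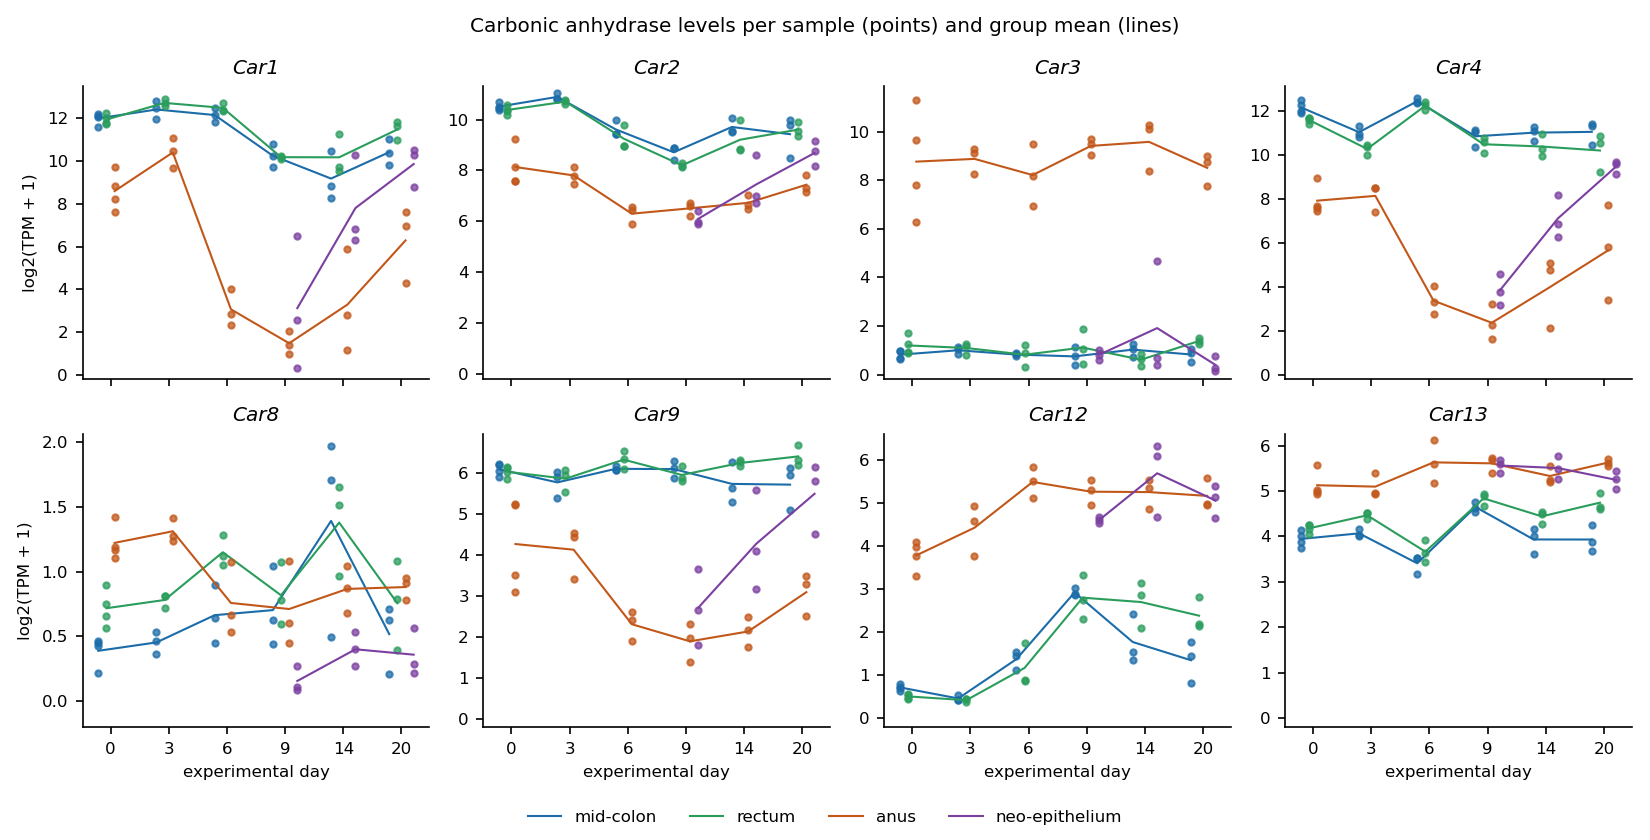
Level of each gene as log2(TPM + 1) (y axis) by experimental day (x axis), with a point per sample and a line through the group means, coloured by section. Car1, Car2 and Car4 fell in mid-colon and rectum by day 9, and the anal levels of Car1 and Car4 ran lower still from day 6.

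After injury, the counts of carbonic anhydrases called against day 0 were highest at day 9 in mid-colon and at days 6 and 9 in rectum and anus. The share of all genes called was highest on the same days of each section. The 5 comparisons of a section share its day 0 mice, so they are not independent of each other. In mid-colon, 1 of 5 tested genes was called at day 3 (0.375% of all genes tested), 2 of 6 at day 6 (14.9%), 5 of 6 at day 9 (43.4%), 3 of 6 at day 14 (4.36%) and 1 of 5 at day 20 (1.56%). In rectum the counts were 2 of 6 at day 3 (6.62%), 5 of 7 at day 6 (48.7%), 5 of 7 at day 9 (53.5%), 4 of 6 at day 14 (15.8%) and 4 of 7 at day 20 (7.68%). In anus they were 0 of 8 at day 3 (0.044%), 5 of 8 at day 6 (15%), 5 of 8 at day 9 (5.09%), 3 of 8 at day 14 (4.27%) and 1 of 8 at day 20 (1.46%). The day 0 against day 3 fit in anus gave 0 limma calls among the 8 genes in every alternative run, with 1 gene (Car1) at an unadjusted p under 0.05. Between consecutive days, 5 of 6 genes were called from day 6 to day 9 in mid-colon (40.5% of all genes tested) and 5 of 8 in rectum (37.9%). From day 9 to day 14 the counts were 3 of 8 in mid-colon (19.7%) and 0 of 7 in rectum (8.04%; limma, with 1 gene, Car2, at an unadjusted p under 0.05). Without the filter on low values, which adds genes to the adjustment, the calls against day 0 that were lost were Car4 at day 3, Car1, Car2 and Car4 at day 14 and Car1 at day 20 in mid-colon; Car1 at days 3, 6 and 14, Car2 at days 14 and 20 and Car4 and Car13 at day 20 in rectum; and Car9 at days 6 and 9, Car2 at day 9, Car1 and Car4 at day 14 and Car12 at day 20 in anus. In 1 fit over all 21 groups, those of Car2 in mid-colon at day 14 and rectum at day 20, Car12 in mid-colon at day 6 and Car8 in rectum at day 6 were lost, besides those of Car1 and Car4 given with these genes. The median log2 change of the tested carbonic anhydrases at day 9 was -0.66 in mid-colon, -0.09 in rectum and -1.07 in anus, beside 0.09, 0.13 and 0.06 over all genes tested. The scale itself moved at day 6, where the median over all genes was -0.24 in mid-colon and -0.27 in rectum (-0.03 and -0.06 with TMM factors). At day 9 TMM factors moved these medians to -0.13 and -0.15. The split of all calls moved with them: in rectum, a split of 1455 up and 4690 down at day 6 became 2213 and 2300 with TMM factors, and 4404 higher and 2624 lower at day 9 became 3190 and 4655. In mid-colon, 590 higher and 1195 lower at day 6 became 1038 and 894, and 3264 higher and 2089 lower at day 9 became 2726 and 3799.

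**Figure D3:**
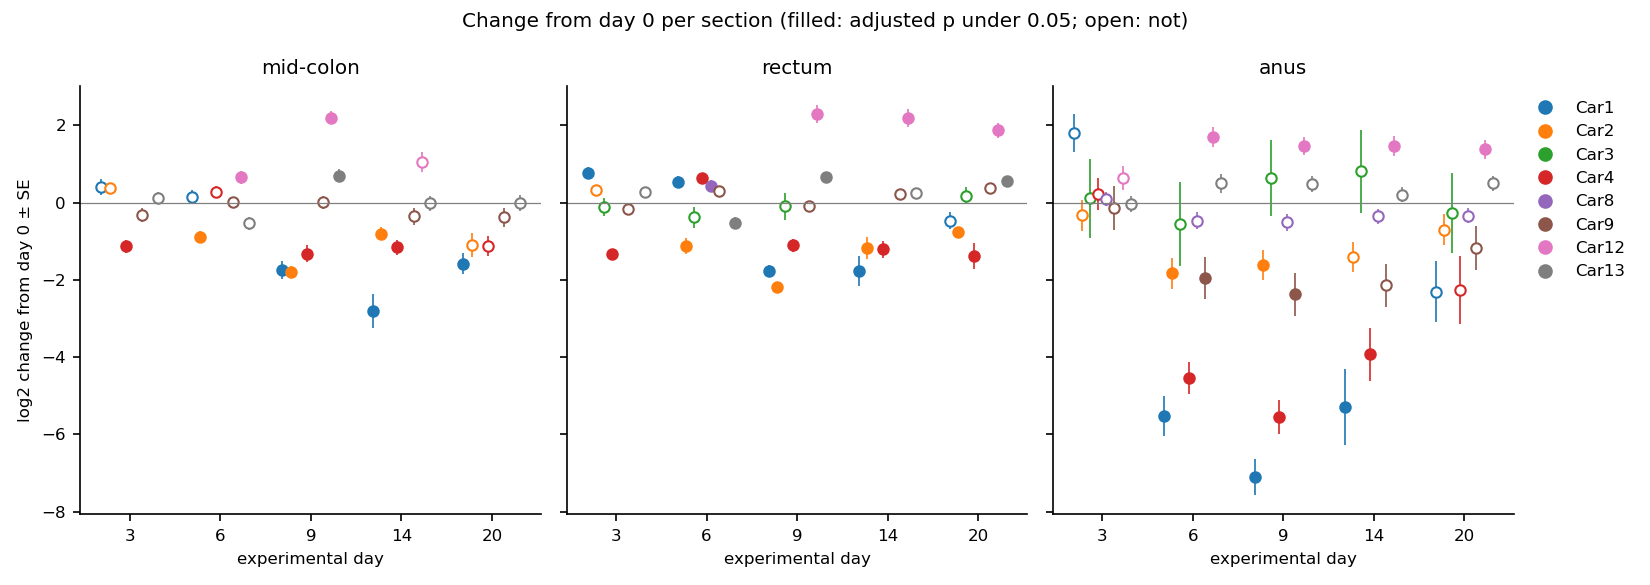
Log2 change from day 0 with its SE (y axis) by experimental day (x axis) for each tested gene in mid-colon, rectum and anus, with filled points for limma adjusted p under 0.05. The anal falls of Car1 and Car4 reached -7.10 and -5.55 at day 9, and the rises of Car12 were 2.20 in mid-colon and 2.29 in rectum.

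Car1, the cytosolic enzyme that marks mature colonocytes, rose early in the rectum and then fell. In rectum it was 3352, 3465, 4883 and 4061 TPM in the uninjured mice, 7455, 6655 and 5965 TPM at day 3 and 6694, 5247 and 5205 TPM at day 6. Every value of days 3 and 6 lay above every uninjured value. The log2 changes were 0.77 ± 0.14 (SE) at day 3 and 0.54 ± 0.15 at day 6 (limma adjusted p 0.0118 and 0.0188). By day 9 rectal Car1 stood at 1190.0, 1097 and 1168 TPM, a log2 change of -1.76 ± 0.14 (SE; limma adjusted p 2.01e-05), with the 3 mice close to each other. At day 14 it was 2452, 839 and 733 TPM, a change of -1.76 ± 0.39 (0.0268), and at day 20 it was 3177, 1985 and 3574 TPM, which overlapped day 0 (-0.46 ± 0.22, adjusted p 0.201).
In mid-colon Car1 was 3094, 4162, 4381 and 4726 TPM at day 0 and 1736, 839.5 and 1202 TPM at day 9, a log2 change of -1.74 ± 0.23 (SE; limma adjusted p 0.000248). It stayed below the uninjured range at day 14, with 1387, 448 and 306 TPM, and at day 20, with 1304, 899.7 and 2106 TPM. These were changes of -2.81 ± 0.43 and -1.58 ± 0.28 (limma adjusted p 0.0139 and 0.0264). In anus Car1 was 198, 445, 296 and 831 TPM at day 0 and 2164, 800.4 and 1395 TPM at day 3, ranges that overlap and a change that was not called (1.80 ± 0.49, adjusted p 0.627). It then dropped to 15.1, 6.29 and 4.05 TPM at day 6 and 1.62, 3.20 and 0.999 TPM at day 9, log2 changes of -5.52 ± 0.52 and -7.10 ± 0.46 (limma adjusted p 0.000501 and 0.000124). Anal values were 57.9, 5.93 and 1.28 TPM at day 14 (change -5.30 ± 0.98, adjusted p 0.0245) and 195, 18.4 and 123 TPM at day 20 (change -2.30 ± 0.78, adjusted p 0.17).
The 3 day 9 calls of Car1 kept their adjusted p under 0.05 without any 1 mouse, and those of mid-colon and rectum were lost in 1 fit over all 21 groups, which share an estimate of spread (0.0886 and 0.082), as were the rectal calls of days 3, 6 and 14 (from 0.16 to 0.95) and the mid-colonic call of day 20 (0.216). The rectal day 3 call was lost without mouse 5 (adjusted p 0.0598), the mid-colonic day 14 call without mouse 15 or 16 (up to 0.0557), the anal day 14 call without mouse 2, 4, 15 or 16 (up to 0.0849), and the rectal day 14 call without any 1 mouse but number 14 (up to 0.0978). The rectal day 6 call was lost without mouse 1, 2 or 8 (up to 0.0627) and the mid-colonic day 20 call without mouse 1, 2, 3 or 17 (up to 0.0919).

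Car2, the fast cytosolic enzyme found in many tissues, fell earlier than Car1 and came partly back. In rectum it was 1155, 1309, 1538 and 1339 TPM at day 0, 1566, 1712 and 1726 TPM at day 3 and 504, 889.6 and 500.2 TPM at day 6. The day 3 values lay above the uninjured ones without being called (0.33 ± 0.10, limma adjusted p 0.101; 0.0445 with TMM factors and 0.0498 without day 0 mouse 3), while those of day 6 lay wholly below, a log2 change of -1.13 ± 0.20 (SE; 0.00329). At day 9 rectal Car2 was 278, 314 and 289 TPM, a change of -2.17 ± 0.12 (limma adjusted p 2.81e-06). The 3 mice of day 9 differed by far less than the step from day 6, which was itself called (-1.05 ± 0.23, adjusted p 0.00916). Mid-colon showed the same order, with 1442, 1648, 1414 and 1338 TPM at day 0, 692, 1023 and 681 TPM at day 6 and 467, 339 and 466 TPM at day 9. Its changes were -0.89 ± 0.16 and -1.79 ± 0.15 (limma adjusted p 0.00758 and 2.14e-05). From day 9 to day 14 mid-colonic Car2 rose to 1066, 722 and 758 TPM, a step of 0.99 ± 0.22 (limma adjusted p 0.0174; 0.0662 without mouse 12). It still lay below day 0 (-0.80 ± 0.16, adjusted p 0.0311; lost without mouse 1, 2, 3, 15 or 16, up to 0.138). At day 20 the mid-colonic values were 884, 359 and 1016 TPM, below every uninjured value and not called (-1.08 ± 0.31, adjusted p 0.0968). In rectum Car2 was 1014, 453 and 448 TPM at day 14 and 748, 661 and 953 TPM at day 20. Both days lay under the uninjured range, with changes of -1.17 ± 0.28 and -0.77 ± 0.15 (limma adjusted p 0.0328 and 0.0297). Each of these 2 calls was lost without any 1 of 6 mice: the call held without mouse 14 at day 14 and without mouse 19 at day 20 (up to 0.126 and 0.0857 otherwise). In anus Car2 went from 189, 284, 189.6 and 605 TPM to 94.0, 87.0 and 58.0 TPM at day 6 and 106, 73.5 and 95.2 TPM at day 9, a smaller fall than that of Car1. The changes were -1.83 ± 0.40 and -1.62 ± 0.38 (limma adjusted p 0.0171, lost without mouse 9 or 10, and 0.048, lost without mouse 2, 11, 12 or 13; up to 0.0723 and 0.181).

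Car4, the apical membrane enzyme, fell at day 3, rose at day 6 and fell again at day 9 in rectum. In rectum it was 2731, 3056, 3297 and 3230.4 TPM at day 0, 1018, 1414 and 1301 TPM at day 3, 4939, 4199.9 and 5414 TPM at day 6 and 1760.3, 1082 and 1535 TPM at day 9. Each of these ranges was separate from day 0, with day 6 above it and days 3 and 9 below. The log2 changes were -1.32 ± 0.12 (SE; limma adjusted p 0.000511), 0.65 ± 0.11 (0.00273) and -1.10 ± 0.17 (0.000602), and each kept its call without any 1 mouse. In 1 fit over all 21 groups none of these 3 was called (0.36, 0.367 and 0.0974). Car1 was high in the same rectal samples on both days 3 and 6, and the share of Car4 in the summed level was 12.9% ± 2.46 (day 3) and 43.0% ± 4.65 (day 6; SD, n = 3). In mid-colon Car4 was 3802, 4074, 4982 and 5674 TPM at day 0, 1791, 2001 and 2549.9 TPM at day 3 and 5340.1, 6127 and 5206 TPM at day 6. Day 3 was called (-1.13 ± 0.17, limma adjusted p 0.0294; lost without mouse 1, 2, 3, 5 or 6, up to 0.104), and day 6 overlapped day 0 (0.28 ± 0.15, 0.205). At day 9 mid-colonic Car4 was 2273, 1296 and 2103 TPM, a change of -1.32 ± 0.21 (limma adjusted p 0.000722). There was little return afterwards in either section. Rectal Car4 was 1949.7, 1223 and 986 TPM at day 14 and 592, 1471 and 1858 TPM at day 20, changes of -1.21 ± 0.22 and -1.39 ± 0.34 (limma adjusted p 0.0153 and 0.0471). Mid-colonic Car4 was 2498, 1589.9 and 2197 TPM at day 14 (-1.15 ± 0.20, 0.0183) and 1385, 2703 and 2519 TPM at day 20 (-1.11 ± 0.26, 0.0579, not called). The mid-colonic calls of days 3 and 14 and the rectal calls of days 14 and 20 were also lost in 1 fit over all 21 groups (from 0.101 to 0.464). The mid-colonic day 14 call was lost with TMM factors (0.0576) and without mouse 3, 15 or 16 (up to 0.0783). The rectal day 20 call was lost with TMM factors (0.0596) and without any 1 of mice 1, 2, 3, 4 and 18 (up to 0.118), and the rectal day 14 call without mouse 3 (0.0502). In anus Car4 was 189, 206, 175 and 495 TPM at day 0, 361, 168 and 365 TPM at day 3, 15.6, 5.87 and 8.84 TPM at day 6 and 2.11, 8.25 and 3.83 TPM at day 9. The last 2 days lay far under the lowest uninjured value, with log2 changes of -4.54 ± 0.41 and -5.55 ± 0.44 (limma adjusted p 0.000451 and 0.000239). At day 14 it was 26.3, 32.6 and 3.38 TPM (-3.93 ± 0.69, 0.0205; 0.0647 without mouse 2) and at day 20 213, 9.64 and 55.8 TPM, of which 1 sample reached the uninjured range (-2.26 ± 0.88, 0.214).

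Markers of other cells moved in the same samples. In rectum the summed TPM of the 8 colonocyte markers ran from 4733 to 5183 at day 0, 4677 to 5969.9 at day 6 and 1558 to 1939.7 at day 9, that of 7 neutrophil markers from 1.08 to 6.38, 373 to 3621 and 11299 to 13444, and that of 7 red cell markers from 103 to 146, 244 to 1732 and 1135 to 2608. Red cells carry Car1 and Car2 protein, and their marker sum in rectum was highest at day 9. The goblet sum in rectum (7 markers) ran from 12682 to 16546 at day 0, 29116 to 33511 at day 6 and 10154 to 14294 at day 9. At day 6, 7 of 7 goblet markers were called higher, beside 11.5% of all genes tested. The proliferation sum (8 markers) ran from 190.5 to 227, 99.1 to 205 and 799 to 920.0 at days 0, 6 and 9. In mid-colon the colonocyte sum ran from 6140.2 to 6595 at day 0, 5010.0 to 6301 at day 6 and 1680.1 to 2089.5 at day 9, with 6 of 7 tested markers called lower at day 9 (beside 17% of all genes tested), and the neutrophil sum from 0.201 to 3.36, 38.2 to 208 and 480.1 to 2261. In anus the colonocyte sum ran from 405 to 1184 at day 0, 23.2 to 45.5 at day 6, 24.9 to 39.9 at day 9 and 178 to 545 at day 20. In anus 7 colonocyte markers could be tested, and all 7 fell by day 6 and by day 9, with medians of -4.76 and -5.18 (log2), beside 0.07 and 0.06 over all genes. Aqp8, a defining marker, was at 108 ± 51.4 TPM at day 0 and 0.406 ± 0.331 TPM at day 9 in anus (SD). The part of these changes in tissue makeup in the values of Car1, Car2 and Car4 was not tested.

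Car9, the transmembrane enzyme known as a hypoxia target, was not called against day 0 on any day in mid-colon or rectum. In rectum its level was 56.6, 70.2, 68.4 and 63.9 TPM at day 0, 80.6, 92.3 and 67.6 TPM at day 6 and 55.5, 57.7 and 71.3 TPM at day 9. The ranges overlapped on both days. Neither day was called (0.30 ± 0.13 and -0.08 ± 0.13, limma adjusted p 0.0824 and 0.636). With TMM factors both became calls, in opposite directions: 0.54 at day 6 (0.0122) and -0.40 at day 9 (0.0212). Rectal Car9 was 78.7, 70.8 and 75.9 TPM at day 14 and 103, 72.7 and 79.3 TPM at day 20, all 6 values above every uninjured one and neither day called (0.21 ± 0.10 and 0.38 ± 0.14, limma adjusted p 0.181 and 0.132). In mid-colon the mean was 67.6 ± 6.90 TPM in uninjured mice (SD, n = 4) and 68.1 ± 9.51 TPM on day 9 (SD, n = 3). The anus differed. There Car9 was 10.4, 36.8, 7.56 and 36.6 TPM at day 0, 4.37, 2.75 and 5.08 TPM at day 6 and 1.61, 2.96 and 3.98 TPM at day 9. The uninjured mice themselves ranged widely, and the later values lay below all 4 of them. The log2 changes were -1.96 ± 0.55 and -2.38 ± 0.56 (SE; limma adjusted p 0.0441 and 0.0463). Both calls were lost when low genes were not filtered (0.103 and 0.125) and without mouse 2 or 4 or any 1 mouse of the injured group (up to 0.154 and 0.155). Anal Car9 was 3.47, 2.36 and 4.65 TPM at day 14 and 8.75, 4.72 and 10.2 TPM at day 20. Neither of these days was called, though each was in 1 fit over all 21 groups. In rectum at day 9, a list of 12 other hypoxia-responsive genes had 4 calls of a rise and 2 of a fall, shares near those of all genes tested that day (33.5% higher and 20% lower), with a median of -0.04 (log2). With TMM factors 0 were higher and 4 lower, beside 3190 and 4655 of the 13140 genes tested. The largest rise among the 12 was that of Adm, which encodes adrenomedullin (1.21 ± 0.45, limma adjusted p 0.0481; 0.0967 with TMM factors), and the largest fall that of Pdk1, a kinase that restrains pyruvate dehydrogenase (-1.12 ± 0.16, 0.000443). In anus 0 of the 12 were called higher and 2 lower at day 6, beside 8.64% and 6.37% of all genes tested. At day 9 there 0 were called in either direction, beside 1.46% higher and 3.63% lower of all genes. With shares this small, 0 calls among 12 genes says little about the list.

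Car12, the second transmembrane enzyme, was near absent from the uninjured colon and rose in mid-colon, rectum and anus after injury. In rectum it was 0.493, 0.375, 0.39 and 0.447 TPM at day 0, 0.376, 0.357 and 0.293 TPM at day 3, 2.39, 0.855 and 0.817 TPM at day 6 and 9.08, 3.98 and 5.74 TPM at day 9. All 3 values of day 9 lay above every value of days 0, 3 and 6. It remained high at day 14, with 3.30, 7.78 and 6.27 TPM, and at day 20, with 6.04, 3.41 and 3.58 TPM. The rectal log2 changes on the log2(TPM + 1) scale were 2.29 ± 0.23 (limma adjusted p 6.5e-05), 2.19 ± 0.24 (0.00451) and 1.87 ± 0.20 (0.00723). That scale understates changes of genes this low. In mid-colon Car12 was 0.548, 0.671, 0.754 and 0.625 TPM at day 0, 1.92, 1.73 and 1.19 TPM at day 6 and 6.39, 7.09 and 6.28 TPM at day 9. The changes were 0.65 ± 0.16 and 2.20 ± 0.17 (limma adjusted p 0.0278, lost without any 1 of mice 1, 2, 3, 8 and 9, up to 0.102, and 1.51e-05). From day 9 to day 14 it fell to 1.55, 4.38 and 1.91 TPM (-1.15 ± 0.29, limma adjusted p 0.028, which held without mouse 15 and was lost without any other 1 of the 6 mice). In rectum the same step was not called (-0.10 ± 0.36, 0.881). Against day 0, mid-colonic Car12 was not called at day 14, though it was with TMM factors, a pseudocount of 0.1 or 1 fit over all groups. At day 20 it was 2.41, 0.78 and 1.73 TPM in mid-colon, where too few samples reached 1 TPM for a test. Every mid-colonic value of days 14 and 20 lay above every uninjured one. In mid-colon and rectum Car12 entered the tests through its values after injury, so a rise is the direction its entry favours. In anus, where it was not low to begin with, Car12 went from 8.82, 14.7, 16.1 and 12.5 TPM at day 0 to 33.6, 44.5 and 56.2 TPM at day 6 and stayed at 29.7, 46.6 and 30.4 TPM at day 20. Every injured value lay above the uninjured ones from day 6 on, with changes of 1.70 ± 0.25 at day 6 (limma adjusted p 0.00309), 1.48 ± 0.24 at day 9 (0.00895; 0.0511 without mouse 13), 1.47 ± 0.25 at day 14 (0.0179; lost without mouse 2, 14 or 15, up to 0.0705) and 1.38 ± 0.25 at day 20 (0.0425; kept without mouse 1 and lost without any other, up to 0.173). Markers of squamous epithelium were also higher in some of these rectal samples: their summed TPM ran from 17.3 to 155 at day 0, 185 to 828 at day 9, 36.1 to 1047 at day 14 and 12.5 to 592 at day 20. In mid-colon that sum ran from 5.21 to 13.4 at day 0 and 44.4 to 80.9 at day 9. The part of squamous cells in the rise of Car12 was not tested.

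Car13, a cytosolic enzyme, rose in mid-colon and rectum between day 6 and day 9. In rectum it was 15.7, 16.9, 18.0 and 17.9 TPM at day 0, 14.1, 11.5 and 9.76 TPM at day 6, 28.8, 29.8 and 24.5 TPM at day 9 and 30.2, 23.5 and 24.2 TPM at day 20. Day 6 lay below the uninjured range, and days 9 and 20 lay above it. So did day 3, at 21.8, 21.8 and 19.7 TPM, and day 14, at 18.5, 21.6 and 22.3 TPM. Days 3 and 14 were not called, though each had an unadjusted limma p under 0.05. Day 14 became a call in some fit without 1 mouse. The changes at days 6, 9 and 20 were -0.51 ± 0.13 (limma adjusted p 0.0142), 0.66 ± 0.12 (0.00166) and 0.57 ± 0.13 (0.0404; kept without mouse 19 and lost without any other 1 mouse, up to 0.124). The first 2 calls were lost with TMM factors, at -0.28 (0.088) and 0.34 (0.0702). The step from day 6 to day 9 was called on either scale in rectum, at 1.17 ± 0.19 (limma adjusted p 0.00255) and 0.63 with TMM factors (0.0413). In mid-colon Car13 was 15.1, 16.7, 13.7 and 12.3 TPM at day 0, 10.6, 10.5 and 8.02 TPM at day 6 and 26.2, 23.8 and 22.4 TPM at day 9. Day 9 was called (0.70 ± 0.17, limma adjusted p 0.00732; 0.45 with TMM factors, 0.0286), and by day 14 the level was 11.3, 17.0 and 15.1 TPM, 1 mouse below, 1 above and 1 within the uninjured range. The fall from day 9 to day 14 was -0.72 ± 0.20 (0.043), a call lost with TMM factors (0.0671) and without any 1 of the 6 mice but number 15. Anal Car13 averaged 34.5 ± 7.91 TPM in uninjured mice (SD, n = 4) and 50.3 ± 16.7 TPM on day 6 (SD, n = 3), and no day was called. Days 9 and 20 had an unadjusted limma p under 0.05, and days 6, 9 and 20 became calls in 1 fit over all 21 groups.

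Car3, the cytosolic enzyme typical of skeletal muscle and fat, was high in the anal samples and low in the others, with 1 exception. In anus it was 76.8, 223, 2547 and 798 TPM at day 0, 557, 300.4 and 615 TPM at day 3 and 123, 289 and 718 TPM at day 6. It was 526, 816 and 727 TPM at day 9, 1217, 1105 and 328 TPM at day 14 and 429.6, 507 and 218 TPM at day 20. The uninjured mice spanned the widest range of any day in anus, and no day was called against them, the nearest being day 14 (0.81 ± 1.08, limma adjusted p 0.836). In the 38 samples of mid-colon and rectum Car3 ran from 0.252 to 2.69 TPM, under 1 TPM in 22 of them. In neo-epithelium it was 1.04, 0.738 and 0.524 TPM at day 9, 0.59, 0.297 and 24.8 TPM at day 14 and 0.719, 0.221 and 0.0926 TPM at day 20. The single high value was that of mouse 16, in which 8 adipocyte markers summed to 68.4 TPM, the highest of the 9 neo-epithelial samples. That sum was 15.6 to 26.6 TPM at day 9, 16.6 and 9.09 TPM in mice 14 and 15 of day 14 and 8.17 to 15.5 TPM at day 20. In mouse 16, 8 skeletal muscle markers summed to 7.36 TPM. The source of this value of 1 sample was not tested. Anal tissue carried the muscle markers at high levels despite the removal of the muscle layer, from 1808 to 18116 TPM in sum at day 0, beside 12.7 to 41.2 in rectum. Over the 19 anal samples, log2 levels of Car3 and of the muscle sum were correlated (Pearson r 0.944, Spearman rho 0.919, permutation p 1e-05 for each, the smallest that 100000 resamples can give; adjusted p 2e-05 over 2 relations). Without the 2 samples farthest from the median muscle sum the r was 0.904. For the adipocyte sum the r was 0.751 and the rho 0.639 (permutation p 0.0003 and 0.00395, adjusted p 0.0003 for r), and 0.633 without its 2 farthest samples. Both pairs come from the same libraries on a relative scale. Acta1, muscle actin, averaged 1523 ± 1499 TPM in uninjured anus and Adipoq, adiponectin, at 40.1 ± 54.6 TPM (SD, n = 4 each).

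**Figure D4:**
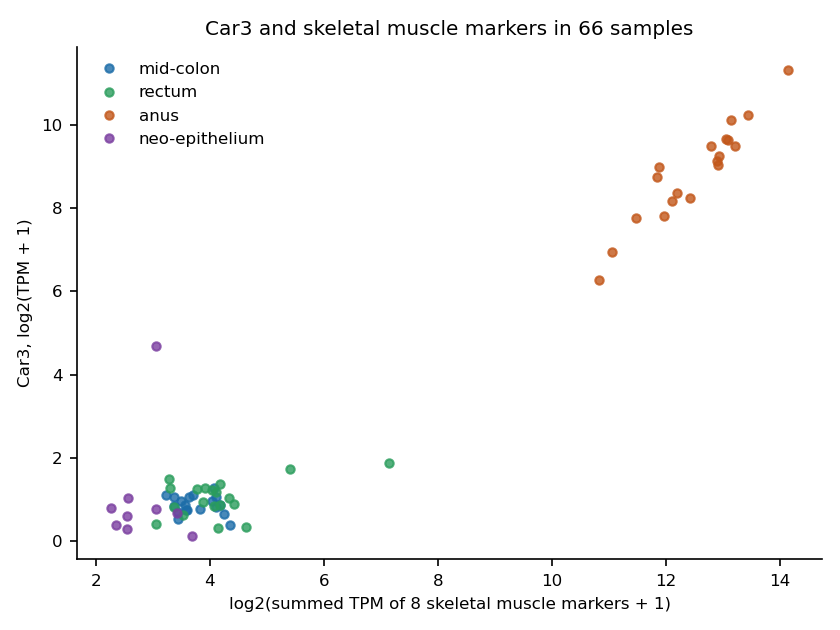
Car3 as log2(TPM + 1) (y axis) against the log2 summed TPM of 8 skeletal muscle markers (x axis) in the 66 samples, coloured by section. The 19 anal samples lie apart at high values of both, and the 1 neo-epithelial point raised in Car3 is that of mouse 16 at 24.8 TPM.

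Car8, the member without enzyme activity, ran from 0.0599 to 2.92 TPM over the 66 samples. Its highest values were in mid-colon at day 14, at 0.409, 2.27 and 2.92 TPM against 0.162, 0.368, 0.379 and 0.34 TPM at day 0, and it was not tested there because too few samples reached 1 TPM. In rectum it was 0.483, 0.683, 0.858 and 0.578 TPM at day 0 and 1.07, 1.17 and 1.43 TPM at day 6, ranges that did not overlap (0.43 ± 0.15, limma adjusted p 0.037). It passed the filter on low values through the day 6 samples alone, where it is high, so a rise is the direction its entry favours. This call was lost with a pseudocount of 0.1 (0.0537) and without any 1 mouse but number 3 (up to 0.109). In neo-epithelium it stayed under 1 TPM, from 0.0599 to 0.207 TPM at day 9 to 0.166 to 0.481 TPM at day 20.

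The responses of anus and rectum were compared directly, by a section-by-day term chosen after the values were seen. At day 6, 6 of 8 genes differed in their response (21.5% of 14571 genes did), and at day 9, 3 of 8 did (19.9%). Car1 fell in anus by day 6 while it rose in rectum, a difference of -6.06 ± 0.60 (SE; limma adjusted p 2.33e-05). Car4 did likewise, at -5.19 ± 0.46 (9.4e-06). At day 9, when both genes were down in each section, the difference was -5.34 ± 0.53 for Car1 (limma adjusted p 1.33e-05) and -4.44 ± 0.52 for Car4 (4.35e-05). These 4 differences kept their calls without any 1 mouse. The difference for Car9 was -2.25 ± 0.62 at day 6 (0.0191; lost without mouse 8 or 9, up to 0.102) and -2.30 ± 0.63 at day 9 (0.0183; lost without mouse 11, 12 or 13, up to 0.075). For Car2 the responses were not called different on either day (-0.70 ± 0.49 and 0.55 ± 0.44, limma adjusted p 0.328 and 0.433). The remaining day 6 calls were weaker. Car8 differed by -0.90 ± 0.23 (0.0152; lost without mouse 9 or 10, up to 0.0926; 0.0543 with the mouse as a replicate block). In this test Car8 reached 1 TPM throughout uninjured anus and rectum at day 6, and never in uninjured rectum. A negative difference is thus the direction its entry favours. Car12 differed by 1.04 ± 0.35 (0.0493; 0.0786 with TMM factors, 0.51 with a pseudocount of 0.1, 0.12 with the block, and lost in 6 of 7 fits without 1 mouse, all but that without mouse 8). Car13 differed by 1.02 ± 0.30 (0.0263; 0.214 with TMM factors, and lost without mouse 2, 3, 4 or 9, up to 0.113). At day 3, 0 of 8 genes differed in limma (0.474% of 14338 genes did), with 1 (Car4) at an unadjusted p under 0.05. Between rectum and mid-colon, 0 of the members tested differed in response at day 6 (0% of all genes, with 730 at an unadjusted p under 0.05), day 9 (6.55%) or day 20 (0.00756%; 4 members, Car1, Car9, Car12 and Car13, at an unadjusted p under 0.05), and in limma 0 did with the mouse as a replicate block or in any other alternative run.

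The neo-epithelium stood between rectum and anus for Car1, Car4 and Car9, while Car2, Car12 and Car13 were not called against anus. Against rectum of days 9, 14 and 20, 7 of 8 carbonic anhydrases were called (42% of 14492 genes), 2 higher (20.7%) and 5 lower (21.3%). Against anus, 4 of 7 tested were called (58.5% of 14861 genes), 3 higher (38.1%) and 1 lower (20.4%). Car1 was 89.4, 0.242 and 4.91 TPM at day 9, 1231, 78.2 and 112 TPM at day 14 and 1457, 439 and 1222 TPM at day 20 in neo-epithelium. It was below the rectum of the same mouse in 9 of 9 mice and above the anus in 8 of 9, with log2 differences of -3.68 ± 0.88 (SE; limma adjusted p 0.00267) and 3.24 ± 0.85 (0.00386). Car4 was 22.7, 8.15 and 12.6 TPM at day 9, 292, 77.2 and 116 TPM at day 14 and 771, 566 and 825 TPM at day 20. It lay below rectum in 8 of 9 mice and above anus in 8 of 9, with differences of -3.54 ± 0.65 (0.000295) and 2.80 ± 0.55 (0.000427). Car9 followed the same order, at 11.6, 2.52 and 5.36 TPM, 46.8, 7.98 and 16.0 TPM and 55.3, 22.0 and 70.3 TPM on the 3 days, below rectum in 9 of 9 mice and above anus in 8 of 9 (-2.04 ± 0.37, limma adjusted p 0.000297, and 1.79 ± 0.36, 0.000473). Car2 was 84.6, 59.2 and 61.8 TPM, 391, 128 and 106 TPM and 429, 286 and 565 TPM, below rectum (-1.59 ± 0.26, 0.0001) and not called against anus over the 3 days together (0.52 ± 0.27, 0.107; called in 1 fit over all groups, 0.0273). By day, Car2 in neo-epithelium was below the anus in 3 of 3 mice at day 9 and above it in 6 of 6 at days 14 and 20.
Car12 and Car13 were the genes called higher than in rectum. Car12 was 23.3, 24.3 and 22.2 TPM at day 9, 24.4, 78.2 and 66.8 TPM at day 14 and 24.1, 41.0 and 33.9 TPM at day 20, above rectum in 9 of 9 mice (2.49 ± 0.25, limma adjusted p 5.98e-07) and not called against anus (-0.11 ± 0.22, 0.682). Car13 averaged 46.4 ± 4.87 TPM (day 9) and 37.2 ± 5.13 TPM (day 20; SD, n = 3 for both), above rectum in 9 of 9 mice (0.76 ± 0.11, 2.5e-05) and not called against anus (-0.08 ± 0.10, 0.49). By day, Car13 was below the anus in 3 of 3 mice at day 9, above it in 3 of 3 at day 14 and below it in 3 of 3 at day 20. Car12 was below the anus in 3 of 3 mice at day 9, 1 of 3 at day 14 and 2 of 3 at day 20. Car3 parted neo-epithelium from anus most, at -8.12 ± 0.46 (limma adjusted p 2.16e-10), where it entered the test through the anal samples. Against rectum it was not called (0.01 ± 0.48, 0.993), but without mouse 16 the difference turned to -0.54 and was called (0.0437). Car8 was below rectum in 9 of 9 mice (-0.68 ± 0.13, 0.000489), under 1 TPM in all 9 neo-epithelial samples and tested through the rectal ones that reached it. The adjusted p of the other calls in these 2 comparisons stayed under 0.05 without any 1 mouse, as it did with mice as a replicate block.

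**Figure D5:**
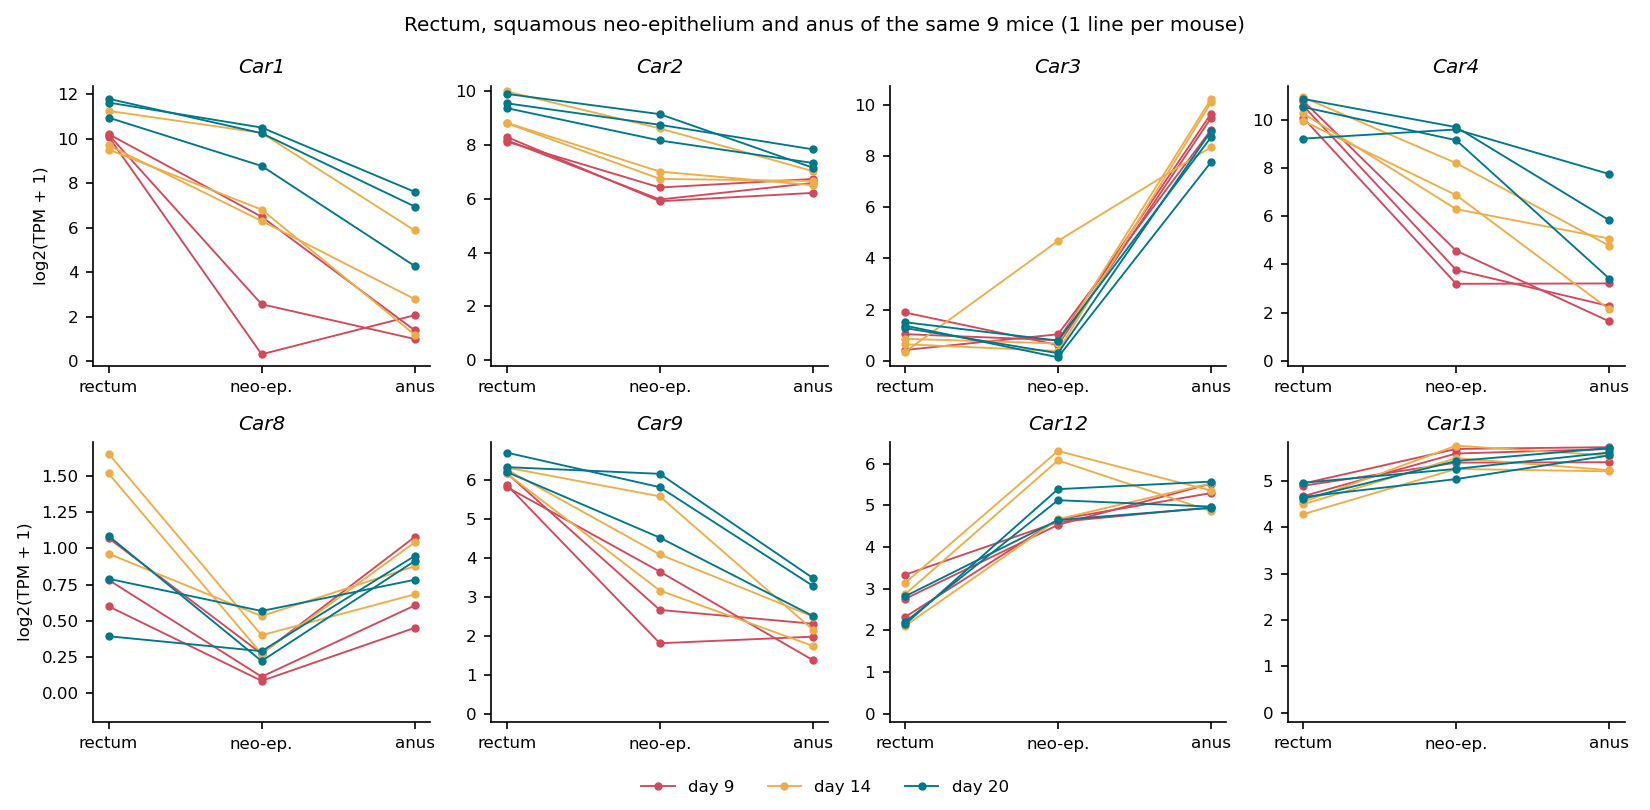
Level of each gene as log2(TPM + 1) (y axis) in rectum, neo-epithelium and anus (x axis) of the 9 mice of days 9, 14 and 20, with a line per mouse coloured by day. Car1 and Car4 of day 9 mice lie at 89.4 TPM or less in neo-epithelium, and those of day 20 mice at 439 TPM or more.

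Within neo-epithelium Car1, Car2, Car4 and Car9 rose from day 9 to day 20. Against day 9, 4 of 6 tested genes were called higher at day 20 (of 13186 genes 26.2% were called, 10.1% up and 16.1% down), and 1 of 6 at day 14 (of 13129 genes 16.8%, 7.04% up and 9.77% down). Car4 rose by 5.63 ± 0.35 on the log2 scale at day 20 (limma adjusted p 0.00122) and by 3.28 ± 0.55 at day 14 (0.0167; lost without mouse 12, 13 or 16, up to 0.0772). Car2 rose by 2.59 ± 0.27 at day 20 (0.00318). Car1 rose by 6.73 ± 1.46 (0.0193; lost without mouse 13, 17 or 19, up to 0.0772) and Car9 by 2.79 ± 0.58 (0.0169; lost without mouse 12, 13 or 17, up to 0.0675). Neither Car12 nor Car13 was called at day 20 (0.46 ± 0.21 and -0.32 ± 0.16, limma adjusted p 0.148 and 0.185). The colonocyte markers rose in the same samples, from 24.6 to 179 TPM in sum at day 9 to 333 to 1662 at day 14 and 1202 to 2502 at day 20, and 7 of 7 tested were called higher at day 20. The squamous sum was 32771 to 34602 at day 9 and 20484 to 24443 at day 20, and 2 of 8 squamous markers were called lower. Other lists moved too: the sum of 7 goblet markers went from 14.5 to 164 to 4117 to 9077 (7 of 7 higher), that of the neutrophil markers from 7328 to 19493 to 545 to 5845 (2 of 7 lower), that of the red cell markers from 1334 to 3253 to 87.1 to 518 (5 of 5 tested lower) and that of 8 proliferation markers from 823 to 861 to 315 to 399 (7 of 8 lower). The mouse with the most Car1 at day 14, number 14, also had the highest colonocyte sum of that day. The part of these cell types in the rises was not tested.

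Other genes of the pathway were counted from a list of 16 transporters and channels that move bicarbonate, protons, chloride, water or short-chain fatty acids in colonocytes. In rectum at day 9, 9 of 15 tested were called lower and 3 higher (11 and 2 with TMM factors), beside 20% and 33.5% of all genes, with a median of -1.0 (log2; 0.13 over all genes). The largest falls were those of Slc26a3, the chloride-bicarbonate exchanger of the apical membrane (-4.17 ± 0.30, limma adjusted p 1.14e-05), and Aqp8, a water channel (-3.66 ± 0.34, 4.65e-05). The largest rises were those of Slc16a3, a lactate transporter (1.91 ± 0.33, 0.00125), and Slc26a6, another anion exchanger (1.22 ± 0.32, 0.0107). At day 6 in rectum, when Car4 was up, 10 of 15 were called lower and 1 higher (8 and 1 with TMM factors), beside 37.2% and 11.5% of all genes. The median was -0.80, against -0.27 over all genes. Best2, a bicarbonate channel of goblet cells, fell most that day (-2.23 ± 0.31, 0.00115), followed by Cftr, the chloride and bicarbonate channel (-2.08 ± 0.25, 0.00067), and Atp12a, a proton pump, rose (0.70 ± 0.13, 0.0042). In mid-colon at day 9, 9 of 15 were lower and 2 higher (11 and 1 with TMM factors), beside 17% and 26.5% of all genes (median -0.997). In anus at day 9 6 of 13 were lower and 0 higher, beside 3.63% and 1.46% of all genes (median -0.48). By day 20 in rectum the count was 2 lower and 1 higher of 15, beside 4.88% and 2.79% of all genes. In neo-epithelium, 8 of 14 were called higher at day 20 than at day 9, beside 10.1% of all genes (median 2.60, and -0.14 over all genes), with Aqp8 and Slc26a3 again at the top (7.43 ± 0.27 and 7.01 ± 0.74, limma adjusted p 0.000274 and 0.00316). The shares of all genes given here are those without TMM factors. With TMM factors, 4655 of 13140 genes were called lower and 3190 higher in rectum at day 9. The counts were 2300 and 2213 of 12615 in rectum at day 6, and 3799 and 2726 of 12323 in mid-colon at day 9.

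Of the 8 other carbonic anhydrase genes in the table, Car5b, Car6, Car11 and Car14 reached a mean of 1 TPM in some group. Car5b, a mitochondrial enzyme, was called higher at day 9 in mid-colon (0.62 ± 0.17, limma adjusted p 0.0124) and rectum (0.94 ± 0.20, 0.00409). Of all genes tested, 26.5% were called higher in mid-colon and 33.5% in rectum that day. Its level was 0.859 ± 0.283 TPM in uninjured rectum, 7.85 ± 2.36 TPM in uninjured anus and 23.6 ± 2.23 TPM in neo-epithelium at day 9 (SD). Car5b thus averaged under the 1 TPM of the filter in uninjured rectum, so its entry there may favour a rise. It was higher in neo-epithelium than in rectum (3.07 ± 0.18, 1.04e-09) and than in anus (0.87 ± 0.16, 0.00026). Car14, a transmembrane enzyme, was at 6.49 ± 6.59 TPM in uninjured anus and 0.0129 ± 0.0223 TPM in neo-epithelium at day 9 (SD), a difference over days 9 to 20 of -2.65 ± 0.28 (7.66e-07). The secreted enzyme Car6 was also lower in neo-epithelium than in anus (-1.46 ± 0.21, 1.94e-05). Both Car14 and Car6 entered this test through the anal samples, where they are high.

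The deposited table resolves transcripts, which were described without tests, as shares of a gene's TPM. Car1 came from 2 start sites: Car1-201, which starts at chr3:14778459, held 76.2% ± 4.32 of the gene in uninjured rectum, and Car1-203, which starts further upstream at chr3:14808365, the rest. At day 9 the share of Car1-201 was 75.1% ± 1.74 in rectum and at day 6 67.3% ± 2.39 (SD). The split between start sites at day 9 was thus close to that of day 0, while the level of the gene was far lower. Car4-201, the main coding transcript of Car4, held 53.7% ± 1.92 in rectum at day 0 and 50.0% ± 5.17 at day 9, and Car4-206, annotated as a target of nonsense-mediated decay, held 32.9% ± 0.793 and 32.0% ± 2.58. Car12 was divided differently between sections. Car12-201 held 93.8% ± 8.86 of Car12 in rectum and 97.4% ± 3.65 in mid-colon at day 9, and 36.0% ± 19.7 in uninjured anus, where Car12-202 held 61.5% ± 19.2. In anus the share of Car12-201 was 55.1% ± 9.43 at day 9 and 68.7% ± 5.09 at day 14, and in neo-epithelium 57.1% ± 7.19 (day 9) and 81.5% ± 8.67 (day 20; SD, n = 3). Short single-end reads assign overlapping transcripts by estimation, so these shares carry an error that the table does not give. Under 1 TPM, as for Car12 in uninjured colon, the split is not given here.

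Across the 21 groups, 6 of the 8 members formed 2 sets by their mean log2 levels, a description over groups that share mice and section. Car1, Car2, Car4 and Car9 had Pearson r of 0.875 or more with each other, the lowest being that of Car2 with Car9, and Car12 and Car13 had an r of 0.906. Car3 reached 0.643 with Car12 and 0.632 with Car13, and Car8 ran from -0.144 to 0.321 with the others. Between the sets r was negative, as for Car2 and Car12 (-0.913). Likeness was sought among 11192 genes with a mean of at least 5 TPM in some group. The members, genes with provisional, clone or pseudogene symbols and genes of the mitochondrial genome were left out. The 3 most alike to Car1 were Gsdmc4 (r 0.987), Gsdmc2 and Muc3. For Car2 they were Slc26a2 (r 0.988), Galm and Dhrs11, and for Car4 Cyp2d10 (r 0.988), Ceacam20 and Cyp2d12. Nlrc4 (r 0.994), Epb41l4b and Tmem8 were most alike to Car9. For Car12 they were Vav3 (r 0.975), Megf9 and Tmem154, and for Car13 Strada (r 0.972), Elp2 and Arl8b. Car3 was most like the muscle genes Klhl41 (r 0.996), Cox6a2 and Mb. Car8 had no close match, with Ano9 nearest (r 0.701), then Ints6l and Ugp2.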

How the data were processed

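RNA was extracted from mucosal sections and sequenced as stranded mRNA libraries with single-end reads of 75 bp, per the labels' protocols. The submitters' processing notes name CASAVA, kallisto and mm10, with no version given in the sources used here. The authors deposited 1 table of transcript abundances in TPM, without counts, so the depth and its error are unknown. Of its 126860 rows, 37344 held no values and 1318 repeated another row and were dropped, after which each sample summed to 1000000 TPM. Transcripts were summed by gene (30452 genes), leaving out 1284 transcripts without a gene identifier, which held 0.563 to 2.83% of the TPM. Between 11268 and 13789 genes reached 1 TPM per sample.

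Groups were tested with limma 3.58.1 (R 4.3.3; trended variance) on log2(TPM + 1), in the samples compared only, over genes that reached 1 TPM in a number of samples not below the size of the smaller group. P-values were adjusted over all genes tested, and a call is an adjusted p under 0.05. TMM factors, a pseudocount of 0.1, no filter, 1 fit over all 21 groups, each mouse left out and the mouse as a replicate block were tried as alternatives. Mouse numbers pair sections because they come from the same animal. The mean correlation of the paired deviations ran from 0.0496 to 0.281. The fit was tested on simulated data. Samples of a group are separate mice, and of 72 pairs within groups 0 were identical (r from 0.96 to 0.993).

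The members, gene lists and comparisons were chosen with earlier results of these data known. All members are named, and of other lists up to 2 called genes with the largest rise and 2 with the largest fall, or a defining marker. For likeness, the 3 genes with the highest r over group means are named, after the exclusions given with them. Correlations used scipy 1.17.1.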

Additional observations from a re-analysis of the deposited data

Results flagged for a closer look

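In 2 of 24 groups of 4 samples checked, 1 sample stood apart from the other 3 by Dixon's criterion (its gap to the next sample, as a share of the range), which chance gives in about 1 of 20 groups. Both were the highest sample of uninjured anus, at 495 TPM for Car4 and 46.3 TPM for Car13. Car4 was called lower and Car13 higher in anus than in rectum at day 0 without any 1 mouse.

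The change from day 0 differed between anus and rectum in a limma test of the difference for 6 genes at day 6 and 3 at day 9. At day 6 the anal change minus the rectal change was -6.06 for Car1, -5.19 for Car4, -0.90 for Car8, -2.25 for Car9, 1.04 for Car12 and 1.02 for Car13 on the log2 scale. At day 9 it was -5.34 for Car1, -4.44 for Car4 and -2.30 for Car9. Of the day 6 calls, that of Car12 was lost in each alternative setting and that of Car13 with TMM factors. Those of Car8, Car9, Car12 and Car13 were lost in some fits without 1 mouse. Car8 passed the filter on low values mainly through uninjured anus and rectum at day 6, so its entry favours a negative difference. Car12 averaged 0.426 TPM at day 0 and 1.35 TPM at day 6 in rectum, and 13.1 and 44.8 TPM in anus. The log2(TPM + 1) scale understates the rectal change. In 3 cases at day 14 every sample of 1 section lay above its day 0 range and every sample of another section below its own. The difference was not tested, and how often all genes show this was not counted. The log2 change of Car8 was 1.00 in mid-colon and -0.36 in anus, a difference of -1.36. Its change in rectum was 0.66, a difference of -1.02 from anus. Car8 was low throughout, at 0.0599 to 2.92 TPM over the 66 samples. The log2 change of Car9 was 0.21 in rectum and -2.13 in anus, a difference of -2.35. The lowest rectal Car9 value at day 14 was 70.8 TPM, just above the highest at day 0, 70.2 TPM. Neither change of Car9 was called, though the anal one was in 1 fit over all 21 groups and in some fit without 1 mouse.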

How the results depend on the processing

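Of 92 calls of a carbonic anhydrase over 31 comparisons, 84 were kept with TMM factors, 90 with a pseudocount of 0.1, 70 with no filter on low values, 73 in 1 fit over all 21 groups and 57 in every fit without 1 mouse. Calls gained were 7, 2, 0 and 18 under the first 4 of these. None of these calls changed direction. Car3 in neo-epithelium against rectum, not called at 0.01, turned to -0.54 without day 14 mouse 16 and was at most 0.17 without any other. With the mouse as a replicate block, 26 of 28 calls between sections were kept, those of Car8 and Car12 in the day 6 response of anus against rectum were lost, and that of Car4 in uninjured rectum against mid-colon was gained (1 call in place of 0); the block changed no other call. With no filter the number of members called was 0 in mid-colon at days 3, 14 and 20 and from day 9 to 14, 1, 2 and 1 in rectum at days 3, 14 and 20, and 3, 1 and 0 in anus at days 9, 14 and 20. In 1 fit over all groups it was 0 in mid-colon at day 3, 0, 2, 3, 2 and 2 in rectum at days 3, 6, 9, 14 and 20, 5 and 4 in anus at days 14 and 20, 5 in neo-epithelium from day 9 to 14 and 2 in rectum from day 9 to 14. The cause was not tested. Without 1 mouse the number called ran from 0 to 1, 1 to 4, 0 to 5 and 0 to 3 in mid-colon at days 3, 6, 14 and 20, from 1 to 3, 3 to 5, 1 to 6 and 1 to 4 in rectum on the same days, and from 3 to 5, 2 to 5, 0 to 4 and 0 to 1 in anus at days 6, 9, 14 and 20. It ran from 0 to 3 and 2 to 4 in neo-epithelium at days 14 and 20 against day 9, from 0 to 3 in mid-colon from day 9 to 14, and from 0 to 1 and 2 to 5 in the responses of anus against rectum at days 3 and 6. The day 9 counts of mid-colon and rectum were 5 in each such fit, and that of uninjured anus against rectum was 8. Groups of 3 or 4 mice and the lack of counts limit the precision of every value.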
